A study of Mus musculus with 4 samples.

Results

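The 7 complement genes C1qa, C1qb, C1qc, C3, C3ar1, C5ar1 and Cfp were examined in the ATAC-seq peaks of WT and IRF8KO mouse microglia, over 4 libraries. The members were all deposited peaks that overlapped a gene body or the 10 kb on either side of it, in the GRCm38 genome with the GENCODE M21 annotation. The 3 C1q genes lie next to each other and share 1 window, so there were 5 windows, each counted once. Of 676057 deposited peaks in the 4 lists, 160 lay in these windows. Peaks with a −log10 q of 2 or more in the deposited lists are called strict here. Overlapping strict peaks were joined across the libraries into regions, and 41 of the 155546 regions lay in the windows. Regions are numbered along the chromosome within each window, so that C1q region 5 is the fifth of 12 in the C1q window.

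Complement is a cascade of blood and tissue proteins that tags particles for removal. C1q, assembled from the C1qa, C1qb and C1qc chains, recognises targets and starts the classical pathway. Properdin, the product of Cfp, stabilises the enzyme complex of the alternative pathway. All pathways meet at C3, whose cleavage releases the small peptide C3a and leaves C3b on the target. C3ar1 encodes the C3a receptor and C5ar1 the receptor for C5a, both of them G protein-coupled receptors. In the brain, microglia are the main source of C1q, and C1q and C3 are known for marking synapses that microglia then engulf.

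The libraries came from mice of the C57BL/6 strain that were 3 months old and untreated. Replicates 1 and 2 were labelled WT and 2 further libraries, again replicates 1 and 2, were labelled IRF8KO, for the loss of the transcription factor IRF8. The cells were isolated without enzymes, sorted by flow cytometry as microglia, and their nuclei were cut with the Tn5 transposase, which inserts adapters where chromatin is open. The labels give neither the sex of the mice, nor the number of mice behind a library, nor how Irf8 was inactivated, and they do not state that replicates came from separate animals, so the p-values measure only the spread between these samples.

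Sequences are shown first for the sites at which the libraries differed. C3ar1 regions 5 and 3 were the shared sites that passed the test, the C3 promoter lacked a peak in 1 WT library, and C3 regions 3 and 5 were each found in a single genotype. The C3ar1 promoter is shown beside them as a site where the genotypes overlapped. The letters are GRCm38, on the minus strand, on which all 7 genes are transcribed, and run 5′ to 3′. Region sequences hold 100 bases on each side of the highest summit and promoters hold the 250 bases before the start site. Capitals mark a match on either strand to 1 of 6 motifs named further on, and the letters shown for C3ar1 region 3 held none.

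C3ar1 region 5, chr6:122862970-122863170: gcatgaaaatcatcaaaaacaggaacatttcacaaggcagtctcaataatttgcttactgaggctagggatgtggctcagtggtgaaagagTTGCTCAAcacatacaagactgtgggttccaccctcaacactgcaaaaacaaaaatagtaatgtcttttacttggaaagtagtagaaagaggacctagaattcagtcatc
C3ar1 region 3, chr6:122854700-122854900: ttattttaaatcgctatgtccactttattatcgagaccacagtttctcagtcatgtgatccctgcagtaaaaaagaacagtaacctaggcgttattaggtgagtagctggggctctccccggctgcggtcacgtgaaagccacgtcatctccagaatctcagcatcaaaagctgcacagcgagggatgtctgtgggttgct
C3ar1 promoter, chr6:122856162-122856411: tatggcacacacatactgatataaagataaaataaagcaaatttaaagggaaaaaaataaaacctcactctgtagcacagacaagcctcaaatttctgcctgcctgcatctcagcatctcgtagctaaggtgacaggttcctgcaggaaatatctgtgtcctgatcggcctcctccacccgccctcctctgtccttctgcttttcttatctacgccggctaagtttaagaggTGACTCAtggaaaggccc
C3 promoter, chr17:57228137-57228386: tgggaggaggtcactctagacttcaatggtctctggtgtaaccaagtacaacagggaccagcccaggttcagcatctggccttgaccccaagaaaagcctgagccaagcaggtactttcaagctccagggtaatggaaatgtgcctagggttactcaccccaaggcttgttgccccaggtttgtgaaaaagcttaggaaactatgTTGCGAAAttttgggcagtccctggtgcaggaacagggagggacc
C3 region 3, chr17:57198345-57198545: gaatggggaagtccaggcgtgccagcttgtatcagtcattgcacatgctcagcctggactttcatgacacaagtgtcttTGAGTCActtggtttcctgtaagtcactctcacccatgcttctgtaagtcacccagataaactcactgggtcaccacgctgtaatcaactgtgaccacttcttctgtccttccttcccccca
C3 region 5, chr17:57223450-57223650: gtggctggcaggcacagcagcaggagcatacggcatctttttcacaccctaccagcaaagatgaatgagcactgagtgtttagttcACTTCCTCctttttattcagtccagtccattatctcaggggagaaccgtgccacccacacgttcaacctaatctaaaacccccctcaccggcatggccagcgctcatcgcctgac

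The height of a peak is given in ppm: the deposited pileup, which is the depth of extended cut sites, at the highest summit of a region per 1000000 tags of the file header. Replicates 1 and 2 had 46948938 and 48896408 tags in WT, against 78793572 and 66224648 in IRF8KO. Tags were 50 bp long in WT and 49 bp long in IRF8KO, so depth, tag size and genotype cannot be told apart. Heights were compared by limma on the log2 scale over all 58550 regions with a deposited peak in all 4 libraries, called shared regions, with Benjamini-Hochberg adjustment over all of them and a threshold of 0.05. Their median log2 difference, IRF8KO minus WT, was −0.31, which is the shift against which single sites can be read. This shift was not shared by both IRF8KO libraries. The median log2 ppm of the shared regions was −0.38 and −0.70 in WT against −1.17 and −0.53 in IRF8KO. IRF8KO replicate 2 thus lay between the WT libraries. A second scaling set the median of the shared regions equal in all libraries and is given where it changes a call. Cells were sorted in bulk, so fewer cells with an open site and less cutting per cell cannot be told apart.

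The sorted cells carried microglial promoters. Of 10 microglia markers, 9 had a strict promoter peak in all 4 libraries, and Sall1 had one in WT alone, in both replicates. The summed promoter height of the microglia list was 29.8 and 22.3 ppm in WT and 12.4 and 20.2 in IRF8KO. The border macrophage list (Mrc1, Lyve1, Cd163, Pf4) summed to 0.958 and 0.757 in WT and to 2.39 and 4.27 in IRF8KO, with Cd163 at 0 in both WT libraries. The endothelial list summed to 7.16 and 5.91 in WT and 1.43 and 2.20 in IRF8KO, of which Cdh5 gave 5.86 and 4.81 in WT and 0.647 and 0.936 in IRF8KO. Other lists were lower than the microglia list but not empty, with Gfap, Aldh1l1, Mbp and Snap25 strict in all 4 libraries and Ccr2, S100a9, Cd3e, Cd79a and Aqp4 without a promoter peak in any. The oligodendrocyte list summed to 2.28 and 1.78 for WT against 0.609 and 1.31 for IRF8KO, the monocyte or neutrophil list to 1.36 and 0.757 against 0.178 and 0.453, and the lymphocyte list to 0.405 and 0.225 against 0.140 and 0.106. The astrocyte list summed to 1.09 and 0.532 for WT against 1.104 and 1.98 for IRF8KO. Within it Aldh1l1 alone was higher in both IRF8KO libraries, at 0.405 and 0.205 against 0.850 and 1.53. Gfap ran the other way, at 0.426 and 0.327 against 0.254 and 0.287, and Slc1a2 had 0.256 and 0 against 0 and 0.166. The neuron list summed to 0.831 and 1.29 against 0.533 and 0.740. The part of these differences in the results that follow was not tested. The Irf8 promoter had 2.07 and 1.49 ppm in WT and 0.863 and 1.36 in IRF8KO, which does not check the labels, since the labels do not say which part of the gene was removed.

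The number of accessible sites around the complement genes did not differ between the genotypes beyond the spread. WT replicate 1 had 33 strict peaks in the windows, WT replicate 2 had 29, and each IRF8KO library had 30. The means were 31 ± 2.83 and 30 ± 0 (SD, n = 2 each), and the exact two-sided permutation p was 1, where 2 against 2 libraries cannot go below 0.33. Counting every deposited peak gave 36 and 40 for WT against 44 and 40 for IRF8KO. The difference thus turned from −1 for strict peaks to 4 for deposited peaks (exact permutation p = 0.667). The length under strict peaks was 8456 ± 939 bp in WT against 9038.5 ± 252 bp in IRF8KO (mean ± SD over 2 libraries, p = 0.667 by exact permutation).

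Of the 41 regions, 21 were strict in all 4 libraries, beside 31% of all regions in the genome. A further 9 were strict in 1 library, beside 43.1% genome-wide. WT-specific regions, strict in both WT libraries and without any deposited peak in either IRF8KO library, numbered 3, beside 5.58% genome-wide. The converse, IRF8KO-specific, held for 1 region, beside 3.86% genome-wide. The same rule applied to the 4 pairs of 1 WT and 1 IRF8KO library found 1, 0, 0 and 0 of the 41 regions in the windows, beside 298, 1018, 263 and 689 of the 155546 regions genome-wide. By position of the summit, 23 regions lay between genes, 10 in introns (9 of them of member genes), 5 in 5′ UTRs, 2 in coding exons and 1 in a 3′ UTR.

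The test of height could be made at 24 of the 41 regions, those with a deposited peak in all 4 libraries. In IRF8KO, 1 of the 24 was lower by limma (genome-wide 6.82%) and 1 was higher (genome-wide 2.81%), both of them in the C3ar1 window, and 22 did not pass. With median scaling 1 was lower (genome-wide 12.5%) and 9 were higher (genome-wide 13.3%). The WT and IRF8KO values did not overlap at 14 of the 24 regions, 7 of them lower (genome-wide 37.1%) and 7 higher (genome-wide 11.9%) in IRF8KO. The median log2 difference of the 24 was −0.026, beside −0.31 for all shared regions, and it was 0.28 with median scaling. It depended on single libraries, being 0.19 without WT replicate 1, −0.23 without WT replicate 2, 0.32 without IRF8KO replicate 1 and −0.34 without IRF8KO replicate 2, and 0.24 to 0.34 with median scaling and 1 library left out. With all libraries and header tags, the 7 shared C1q regions lay below the median of the 24, and 5 of the 7 of C5ar1 lay above it.

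**Figure D1:**
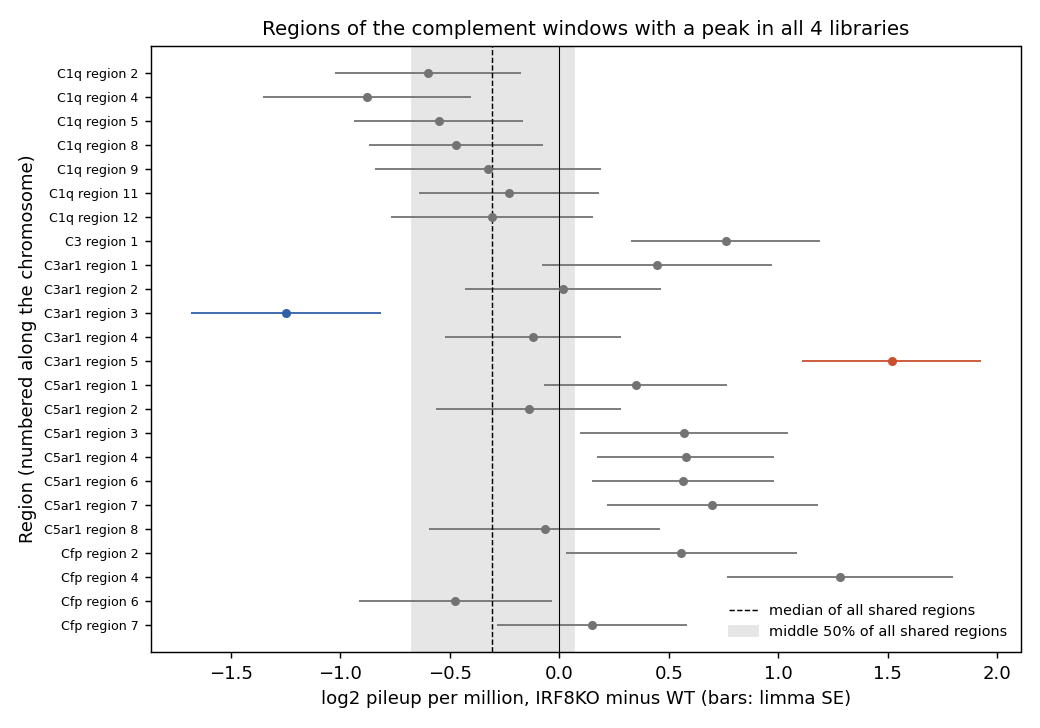
The log2 difference in pileup in ppm, IRF8KO minus WT, with its limma standard error, is plotted for the 24 complement regions that had a peak in all 4 libraries. The dashed line is the median of all shared regions (−0.31) and the grey band their middle 50% (−0.67 to 0.069). C3ar1 region 3 (blue) and C3ar1 region 5 (red) passed the threshold. The median-scaled differences would all lie 0.30 further right, which moves C1q region 11, C3ar1 region 4 and C5ar1 regions 2 and 8 from below to above 0.

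The promoters of the 7 genes spanned a wide range of heights. In both WT libraries C1qb was the highest, followed by C1qc, and C3 was the lowest. The WT ranges of C3ar1 (3.52 to 3.83) and C1qa (2.58 to 3.68) overlapped, whereas each other pair of neighbours in the WT order was separated. C1qb was again the highest in each IRF8KO library (3.998 and 4.82), but its range overlapped that of C3ar1 (2.78 to 4.11), which overlapped those of C1qc and C1qa. The ranges of Cfp, C5ar1 and C3 also overlapped in IRF8KO. These heights are depths at 1 position and so need no correction for gene length.

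**Figure D2:**
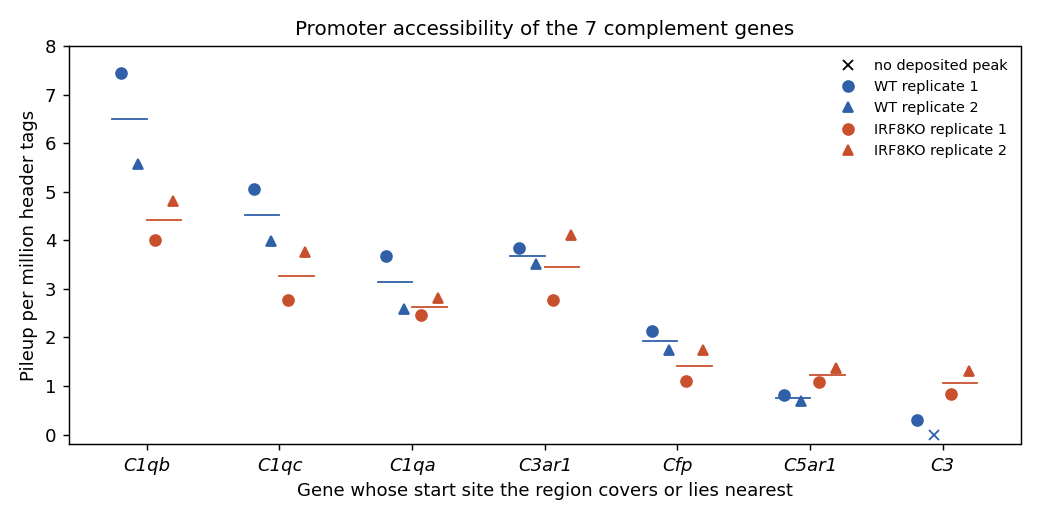
Pileup in ppm at the promoter region of each complement gene is plotted for every library, with a short line at the mean of the 2 libraries of a genotype where both had a peak and a cross at 0 for a library without one. C1qb stood at 7.43 and 5.56 in WT and 3.998 and 4.82 in IRF8KO, and C3 ran the other way, from 0.298 or no peak in WT to 0.825 and 1.31 in IRF8KO.

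The C1q window holds the recognition subunit of the classical pathway. The C1qb promoter (C1q region 5, chr4:136886040-136886534) had 7.43 and 5.56 ppm in WT and 3.998 and 4.82 in IRF8KO. The 2 genotypes did not overlap, but the log2 difference of −0.55 (SE 0.385) did not pass (limma adjusted p = 0.461), and relative to all shared regions it was −0.25. Measured as fold enrichment over the local background the difference was 0.082, of the opposite sign. This promoter had the same pair of summits in every library, and IRF8KO replicate 1 had a further, lower one at 1.89, 268 bp upstream. The one 24 to 30 bp upstream of the start site had 7.43 and 4.97 in WT and 3.998 and 3.84 in IRF8KO. At 171 to 175 bp upstream the other had 6.84 and 5.56 in WT and 3.58 and 4.82 in IRF8KO. Both summits were thus lower in each IRF8KO library than in each WT library, and which of the pair was the higher differed between replicates of both genotypes.

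The C1qc promoter (C1q region 8, chr4:136892588-136893192) had 5.05 and 3.99 ppm in WT and 2.78 and 3.76 in IRF8KO. Here too the genotypes did not overlap, with a log2 difference of −0.47 (SE 0.398, limma adjusted p = 0.563). The C1qa promoter (C1q region 11, chr4:136898710-136899198) had 3.68 and 2.58 in WT and 2.46 and 2.81 in IRF8KO, and the genotypes overlapped. Its log2 difference was −0.23 (SE 0.411, limma adjusted p = 0.810), which median scaling turned to 0.076. Across the 3 chains the promoters ranked in the same order, C1qb over C1qc over C1qa, in WT replicate 1, WT replicate 2, IRF8KO replicate 1 and IRF8KO replicate 2.

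All 7 shared regions of the C1q window had a point estimate below 0, beside 71.4% of shared regions genome-wide, and none passed under either scaling. The median of the 7 was −0.47, and with median scaling it was −0.17, with 6 below 0 and 1 above. The farthest from 0 were a pair of weak sites beyond the 3′ end of C1qb. C1q region 4 (chr4:136878721-136879010) had 0.405 and 0.245 in WT and 0.216 and 0.136 in IRF8KO, a log2 difference of −0.88 (SE 0.474, limma adjusted p = 0.287). C1q region 2 (chr4:136876952-136877260) had 0.213 and 0.205 in WT and 0.114 and 0.166 in IRF8KO, a difference of −0.60 (SE 0.424, limma adjusted p = 0.468).

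Between them lay a WT-specific site, C1q region 3 (chr4:136878326-136878614), with 0.277 and 0.245 ppm in WT and no deposited peak in IRF8KO. The second WT-specific site, C1q region 6 (chr4:136886627-136886746), had its summit 0.515 kb upstream of C1qb, next to the promoter. It reached 1.13 and 0.716 ppm, from 53 and 35 extended cut sites. The calling threshold follows the local background, and at the neighbouring C1q region 7 a pileup of 33 in WT replicate 1 had a fold enrichment of 1.82 and a −log10 q of 1.35. The IRF8KO libraries may therefore hold cut sites at region 6 that were not called. In WT it stood higher than 75.2% and 69.2% of shared regions, so it was not among the weak sites. At −log10 q values of 11.7 and 5.63 it was the WT-specific site that passed a threshold of 5 in both WT libraries. Its fold enrichment over the local background was 3.36 and 2.83, and with a fold enrichment of at least 5 in place of the q threshold no region of the windows was WT-specific.

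**Figure D3:**
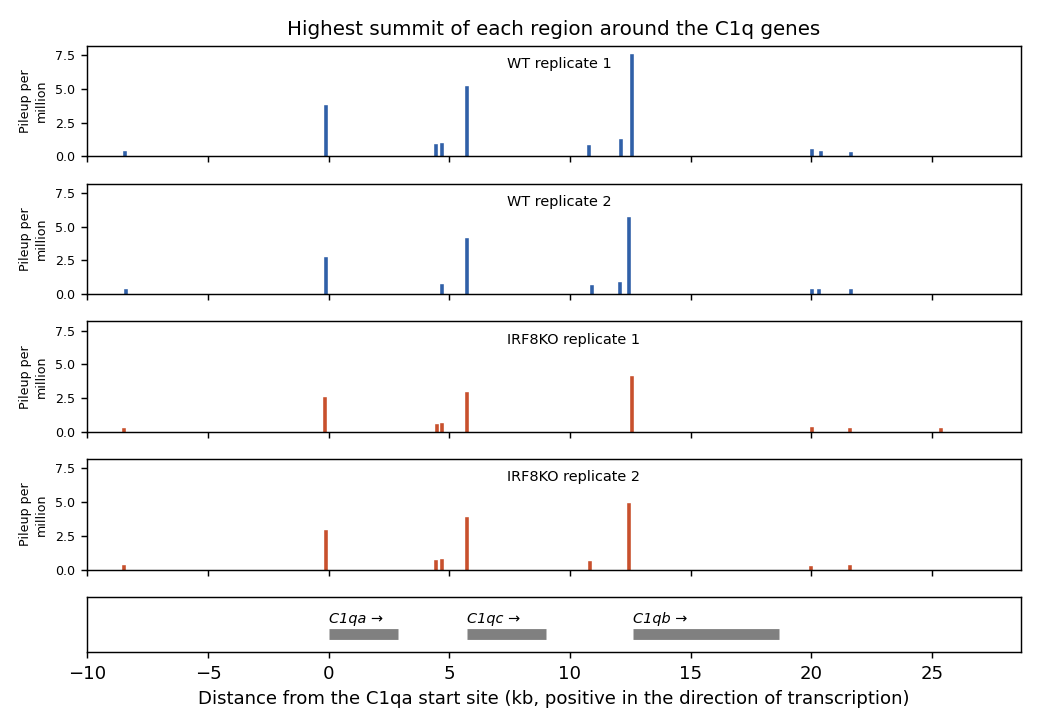
Pileup in ppm at the highest summit of each C1q region is plotted by its distance from the C1qa start site in kb, 1 track per library, with the bodies of C1qa, C1qc and C1qb as grey bars read from left to right. The promoter summits of C1qb reach 7.43 and 5.56 in WT and 3.998 and 4.82 in IRF8KO, and the small bar just before C1qb (1.13 and 0.716) is present only in the WT tracks. Weaker peaks outside strict regions and other genes are not drawn.

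Properdin is the positive regulator of the alternative pathway. The Cfp promoter (Cfp region 6, chrX:20931420-20931719) had 2.13 and 1.74 ppm in WT and 1.104 and 1.74 in IRF8KO. WT replicate 2 and IRF8KO replicate 2 were nearly level, and the log2 difference of −0.47 (SE 0.442) did not pass (limma adjusted p = 0.610). The shared site with the highest mean over the 4 libraries was Cfp region 7 (chrX:20931998-20932345), 0.627 kb upstream of the start, although the promoter was higher in both WT libraries. Region 7 had 2.04 and 1.49 in WT and 1.46 and 2.57 in IRF8KO, which overlapped (log2 difference 0.15, SE 0.435, limma adjusted p = 0.891). Without WT replicate 2 this difference was −0.079, and without IRF8KO replicate 2 it was −0.26.

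Within the gene, Cfp region 4 (chrX:20929907-20930164), an intronic site 1.52 kb downstream of the start, had 0.319 and 0.511 in WT and 0.660 and 1.46 in IRF8KO. Both IRF8KO libraries were above both WT libraries. The log2 difference was 1.28 (SE 0.517, limma adjusted p = 0.102), and with median scaling it passed at 1.59 (limma adjusted p = 1.8e-05). The value moved with single IRF8KO libraries. Without IRF8KO replicate 1 it passed with header tags, at 1.86 (limma adjusted p = 0.00112), and without IRF8KO replicate 2 it was 0.71 (limma adjusted p = 0.254). The median-scaled call was lost without IRF8KO replicate 2 (1.33, limma adjusted p = 0.0584). Cfp region 2 (chrX:20920787-20921223) lay beyond the 3′ end of Cfp, at the edge of the neighbouring gene Syn1. The adjacent Cfp region 1 had its summit in a coding exon of Syn1. Cfp region 2 had 0.383 and 0.4499 in WT and 0.495 and 0.755 in IRF8KO (log2 difference 0.56, SE 0.529, limma adjusted p = 0.618). With median scaling it passed at 0.86 (limma adjusted p = 0.0308), but not without WT replicate 1 (0.59, limma adjusted p = 0.328), IRF8KO replicate 1 (0.84, limma adjusted p = 0.164) or IRF8KO replicate 2 (0.88, limma adjusted p = 0.137). Without IRF8KO replicate 2 the header-tag difference was 0.25.

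C3 had the lowest promoter of the 7 genes in WT and in each IRF8KO library. This region (C3 region 6, chr17:57228039-57228486) had 0.298 ppm in WT replicate 1, no deposited peak in WT replicate 2, and 0.825 and 1.31 in IRF8KO. The −log10 q was 6.38 in WT replicate 1 and 45.2 and 78.7 in IRF8KO, and the fold enrichment was 5.18 against 10.8 and 17.1. The pileup behind these values was 14 extended cut sites in WT replicate 1 and 65 and 87 in IRF8KO. Both IRF8KO libraries thus stood above the single WT value, while the limma test could not include the site because 1 WT library had no peak. Among shared regions of their own library these heights exceeded 27.1% in WT replicate 1 and 77.7% and 81.0% in IRF8KO. The border macrophage list also summed higher in IRF8KO (2.39 and 4.27 ppm against 0.958 and 0.757), through Mrc1, Cd163 and Pf4, while Lyve1 had 0.170 and 0.143 in WT against no peak and 0.151 in IRF8KO. The part of these promoters in the C3 result was not tested.

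The C3 gene body and its flank held a genotype-specific site each way. C3 region 5 (chr17:57223471-57223694), in an intron, was WT-specific with 0.362 and 0.205 ppm, from 17 and 10 extended cut sites. C3 region 3 (chr17:57198347-57198588), between C3 and its downstream neighbour, was IRF8KO-specific with 0.267 and 0.347 ppm, from 21 and 23 extended cut sites. The weakest deposited peaks of the 4 lists had 6 to 8, so both were low sites, and neither was specific at a −log10 q of 5. The shared region in the window, C3 region 1 (chr17:57193819-57194344), covers the 5′ UTR of the neighbouring gene Tnfsf14, which encodes a TNF family cytokine. It had 1.75 and 1.21 in WT and 1.99 and 3.04 in IRF8KO, without overlap, and a log2 difference of 0.76 (SE 0.433, limma adjusted p = 0.325). With median scaling it passed at 1.06 (limma adjusted p = 1.39e-05).

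**Figure D4:**
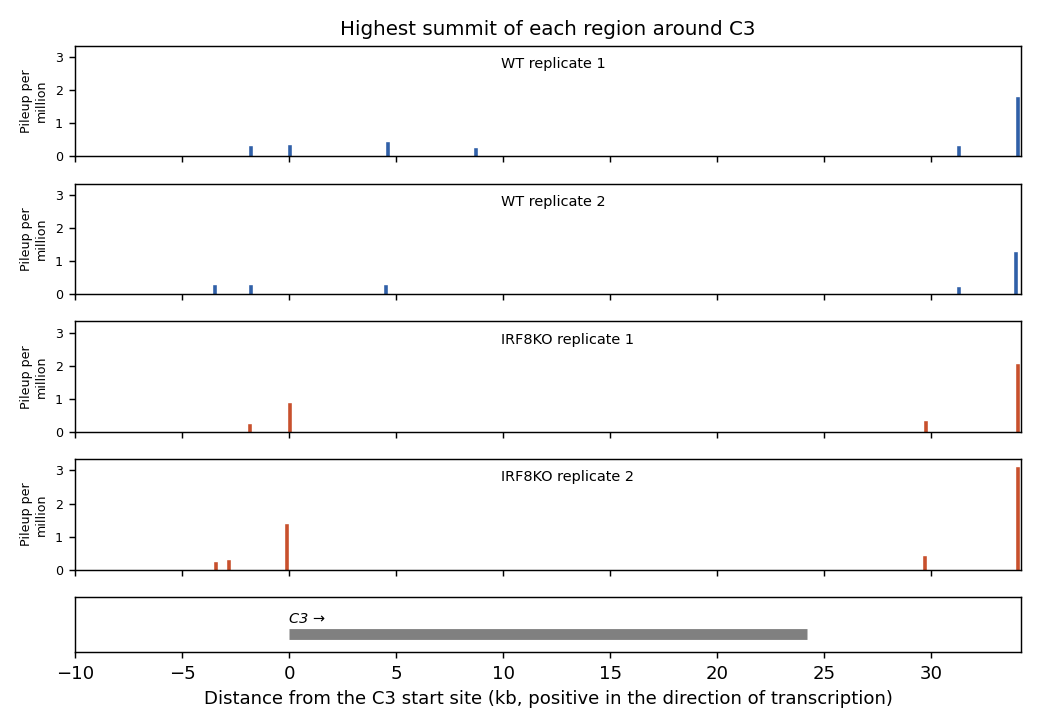
Pileup in ppm at the highest summit of each C3 region is plotted by its distance from the C3 start site in kb, 1 track per library, with the C3 gene body as a grey bar. At the start site the bar is 0.298 in WT replicate 1, absent in WT replicate 2, and 0.825 and 1.31 in IRF8KO, and the tallest bar at the right edge is the Tnfsf14 start. Weaker peaks outside strict regions and other genes are not drawn.

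The C3a receptor gene held the sites that passed the test, and they went in opposite directions. C3ar1 region 5 (chr6:122862812-122863290), between genes and 6.91 kb upstream of the C3ar1 start, had 2.07 and 1.51 ppm in WT and 4.04 and 6.36 in IRF8KO. Both IRF8KO values were above both WT values. The height rose by 1.52 on the log2 scale (SE 0.409, limma adjusted p = 0.00444), a fold of 2.86, and 2.35% of shared regions genome-wide rose more. With median scaling the rise was 1.82 (limma adjusted p = 7.54e-14). In IRF8KO this distal site overtook the C3ar1 promoter, which it did not reach in WT.

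A summit 6.80 to 6.81 kb upstream accompanied the highest one in every library, with 1.36 and 0.859 in WT and 3.06 and 4.18 in IRF8KO. A further summit 7.02 kb upstream was deposited in the IRF8KO libraries alone, at 1.79 and 2.48. The fold enrichment at the highest summit was 26.5 and 24.2 in WT and 29.9 and 36.4 in IRF8KO. On that measure the log2 difference was 0.38 and did not pass (limma adjusted p = 0.142). Leaving out WT replicate 1 gave 1.74 (limma adjusted p = 0.482) and leaving out WT replicate 2 gave 1.29 (limma adjusted p = 0.699), both without the call, whereas with median scaling the rise passed whichever library was left out.

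C3ar1 region 3 (chr6:122854428-122854977), in the intron 1.36 kb downstream of the start, had 2.90 and 2.78 ppm in WT and 1.02 and 1.40 in IRF8KO. The WT values were close together and both lay above both IRF8KO values. The height fell by 1.25 on the log2 scale (SE 0.435, limma adjusted p = 0.0441), a WT to IRF8KO fold of 2.38, and 8.66% of shared regions genome-wide fell more. With median scaling it fell by 0.94 (limma adjusted p = 0.000132). The region had several summits, and the highest one in WT replicate 2 was another than in the other libraries. At the summit 1.36 kb downstream the values were 2.90 and 2.07 in WT and 1.02 and 1.40 in IRF8KO. At the summit 1.60 to 1.64 kb downstream they were 2.58 and 2.78 in WT and 0.673 and 1.09 in IRF8KO. WT and IRF8KO were therefore separated at both summits.

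The fall at C3ar1 region 3 was close to the threshold. It did not pass with fold enrichment, where the log2 difference was −0.99 (limma adjusted p = 0.102), nor without WT replicate 1 (−1.22, limma adjusted p = 0.99991), WT replicate 2 (−1.28, limma adjusted p = 0.776) or IRF8KO replicate 1 (−1.02, limma adjusted p = 0.0591). With median scaling it passed whichever library was left out. The part of the border macrophage and endothelial promoters that also differed between the genotypes was not tested for either C3ar1 site.

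The C3ar1 promoter between these sites (C3ar1 region 4, chr6:122855775-122856322) had 3.83 and 3.52 ppm in WT and 2.78 and 4.11 in IRF8KO. The genotypes overlapped, and the log2 difference was −0.12 (SE 0.401, limma adjusted p = 0.905), or 0.18 with median scaling. A second intronic site, C3ar1 region 2 (chr6:122852754-122853039), had 1.70 and 1.31 in WT and 1.14 and 1.99 in IRF8KO, a log2 difference of 0.015 (SE 0.448, limma adjusted p = 0.990). No difference was thus detectable with 2 libraries a genotype at the promoter, while both neighbouring sites passed.

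**Figure D5:**
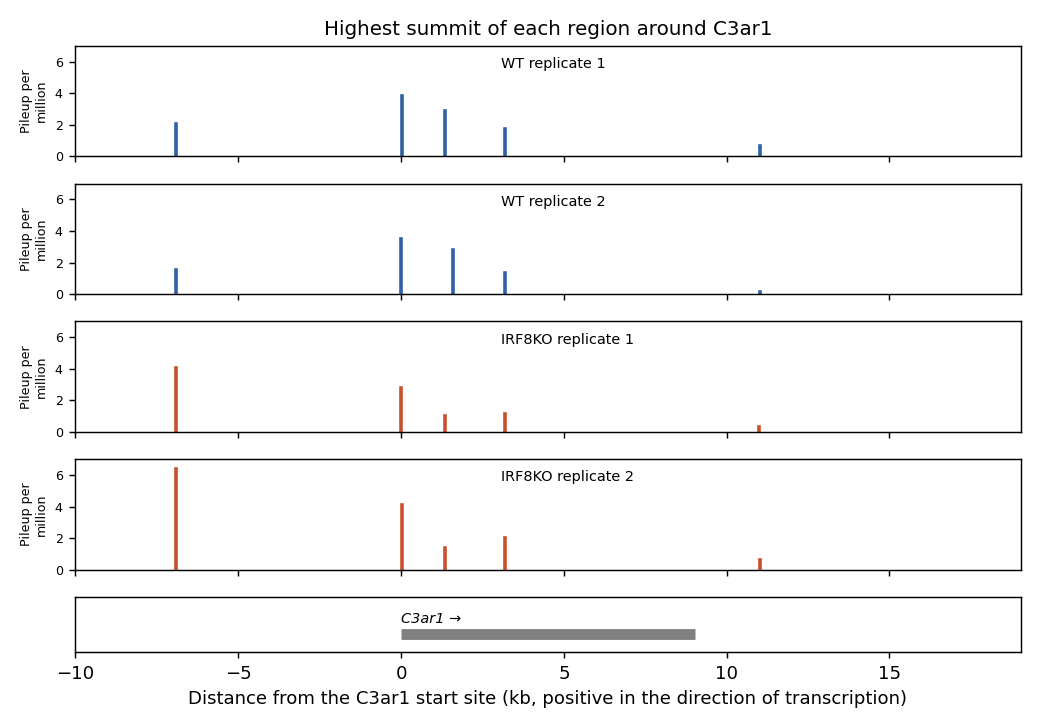
Pileup in ppm at the highest summit of each C3ar1 region is plotted by its distance from the C3ar1 start site in kb, 1 track per library, with the gene body as a grey bar. The bar at the left, C3ar1 region 5, is 2.07 and 1.51 in WT and 4.04 and 6.36 in IRF8KO. At the start site the log2 difference is −0.12, or 0.18 with median scaling, and the bar at 1.36 or 1.60 kb, C3ar1 region 3, is 2.90 and 2.78 in WT and 1.02 and 1.40 in IRF8KO. Weaker peaks outside strict regions and other genes are not drawn.

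C5ar1, the C5a receptor gene, was the member with the most shared sites inside its body, 4 of the 7 in its window. C5ar1 region 4 (chr7:16254277-16254664), an intronic site 5.10 kb downstream of the start, had the highest mean of the window, with 2.92 and 2.56 ppm in WT and 3.67 and 4.53 in IRF8KO, although C5ar1 region 2 was higher in WT replicate 1. The genotypes did not overlap, the log2 difference was 0.58 (SE 0.404, limma adjusted p = 0.461), and with fold enrichment it was −0.010. The promoter (C5ar1 region 7, chr7:16259132-16259398) had 0.809 and 0.695 in WT and 1.08 and 1.37 in IRF8KO, also without overlap (log2 difference 0.70, SE 0.482, limma adjusted p = 0.454). Its summit lay 213 bp inside the GENCODE gene, near the RefSeq start at position 16259338.

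None of the 7 shared regions of the C5ar1 window passed with header tags. Their log2 differences ran from −0.14 to 0.70 with a median of 0.57, beside −0.31 for all shared regions. With median scaling 5 of the 7 passed as higher (genome-wide 13.3%), and at 2 of these, C5ar1 regions 1 and 3, the genotypes overlapped with header tags. Region 1 had its summit in an intron of the neighbouring gene C5ar2. Among the 5 were region 4 (0.88, limma adjusted p = 3.06e-05) and the promoter (1.003, limma adjusted p = 0.00102), and all 7 point estimates were above 0 (genome-wide 49.8%). The call at the promoter was lost without IRF8KO replicate 1 (0.85, limma adjusted p = 0.0583), and that at region 4 held whichever library was left out. A second intronic site, C5ar1 region 6 (chr7:16257808-16258162), ran alongside region 4 with 2.45 and 1.74 in WT and 2.64 and 3.53 in IRF8KO. Measured as fold enrichment, the promoter difference was 0.11 and did not pass (limma adjusted p = 0.906). Fold enrichment overlapped at region 6 (13.7 and 12.5 in WT, 12.1 and 13.5 in IRF8KO) and region 3 (8.94 and 6.55, 7.27 and 8.41). At region 1 it did not overlap (14.6 and 14.1, 15.3 and 16.8). C5ar1 region 2 (chr7:16244117-16244429) covered the start of the neighbouring gene C5ar2. It had 3.05 and 1.94 in WT and 1.87 and 2.61 in IRF8KO, which overlapped (log2 difference −0.14, or 0.16 with median scaling).

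Matches to 6 motifs on either strand were looked for within 100 bp of each region's highest summit, among them 3 through which IRF8 or its partner PU.1 bind DNA. The ETS-IRF composite (GGAA and GAAA with 2 bases of any kind between them), bound by PU.1 with IRF8 or IRF4, was present in 2 of the 41 regions (4.88%), beside 4.31% of all regions, in windows of the same length. These were C1q region 2 and Cfp region 7, both with the letters GGAAGTGAAA. The interferon response element (GAAA and GAAA with 2 bases between) was present in 2 (all regions 3.12%), C5ar1 regions 6 and 8. The PU.1 motif GAGGAAGT, which can overlap an ETS-IRF match, was present in 4 (9.76%, all regions 7.73%). C3ar1 regions 3 and 5 held no match to any of these 3 in these windows. The window of region 3 did not reach the summit that was highest in WT replicate 2.

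The AP-1 motif TGANTCA was present in 6 regions (14.6%, all regions 8.12%), the CEBP motif TTGCNNAA in 7 (17.1%, all regions 9.54%) and the RUNX motif TGTGGTT in 4 (9.76%, all regions 5.58%). In C3ar1 region 5 the CEBP letters TTGCTCAA, in capitals above, lay 6 bp from the summit. The C3 promoter held TTGCGAAA within its 250 bases, as 9.62% of 32585 RefSeq promoters of that length held a CEBP match. IRF8KO-specific C3 region 3 held an AP-1 match 18 bp from its summit, and WT-specific C3 region 5 a PU.1 match 11 bp from its summit. The C3ar1 promoter held an AP-1 match (6.78% of promoters). A match describes the letters only.

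Outside the 7 genes, a list of 38 other complement genes had 187 further regions, of which 8 were WT-specific (5.58% of all regions genome-wide) and 9 IRF8KO-specific (3.86%). Of 89 shared regions 10 were lower (genome-wide 6.82%) and 2 higher (2.81%) in IRF8KO by limma. With median scaling these counts were 15 (12.5%) and 9 (13.3%). A site 3.73 kb from C1ra, in a coding exon of C1rl, had 3.15 and 2.23 ppm in WT and 0.305 and 0.574 in IRF8KO, and fell by 2.66 on the log2 scale (SE 0.474, limma adjusted p = 2.34e-06). Lower sites were also called at C2, Cfb, Masp1, Itgb2 and C5ar2, the site at Cfb being in the C2 window too.

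Of the higher calls, 1 was the promoter of Cd59a, an inhibitor of the terminal pore, with 0.554 and 0.143 ppm in WT and 0.711 and 1.39 in IRF8KO (log2 difference 1.82, SE 0.527, limma adjusted p = 0.00981). The other lay downstream of C6, a component of that pore, with 1.15 and 0.654 in WT and 2.47 and 2.79 in IRF8KO (log2 difference 1.60, SE 0.447, limma adjusted p = 0.00679). IRF8KO-specific regions lay in the windows of C6 (4 of the 9), Vsig4, Masp1, Cfd, Itgb2 and, as 1 shared region, C1ra and C1s1. The summit of the site at Masp1 lay in a Masp1 intron and also in the 5′ UTR of the neighbouring gene Rtp4. WT-specific regions lay in the windows of Hc, the gene of complement C5 (3 of the 8), Itgam (2), C1ra, Serping1 and C1qbp. A further 22 genes had neither a genotype-specific nor a called region.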

How the data were processed

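ATAC-seq peak lists of 4 libraries, WT and IRF8KO with 2 each, were used. Per the submitters' processing notes the build was mm10 (GRCm38) and the tools were bcl2fastq, Bowtie2, MACS2 2.1.1.20160309 and deepTools. The authors ran the peak caller once per library and without control reads, per the file headers, with a p cutoff of 0.01 and cut sites moved by 37 bp and extended to 73 bp. The deposited pileup is a signal not scaled for depth. The fold enrichment is likewise deposited, as a ratio of pileup to local background. The deposited p-values and q-values are −log10 values. Although the headers declare q as not calculated, its column held values, and these were used. No deposited peak lay beyond a GRCm38 chromosome end, and peaks outside the autosomes and chromosome X were not used.

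An interval listed once per summit was counted as 1 peak and took its highest summit. Strict peaks were merged at an overlap of 1 bp. Pileup was divided by the header tags, which assumes that it scales with them, and log2 values without a pseudocount were compared by limma 3.58.1 in R 4.3.3 (trend, genotype as the single term), checked on simulated data. The estimated spread was treated as common to regions of a given height. Values per library were compared by exact permutation tests. Promoter sequences and start sites were matched to RefSeq (GRCm38) by symbol for 6 of the 7 genes, and C1qa was not matched. Sites named were every genotype-specific or limma-called region, the region nearest each start within 1 kb, the shared region of highest mean in a window and the 2 shared regions with the largest difference among those whose genotypes did not overlap. Regions described beyond this rule (C1q region 7, C3ar1 region 2, C5ar1 regions 2 and 6) were chosen after their values were seen. Other complement genes were named when they held a genotype-specific or called region, and some listed items are not reported here. The members and lists were chosen with earlier results of these data known. Alternatives covered scaling, fold enrichment, thresholds, flanks, summit position, a pseudocount of 1, the replicate number and each library left out.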

Additional observations from a re-analysis of the deposited data

How the results depend on the processing

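Among the 24 shared complement regions, the single lower call became 0 with fold enrichment and with the replicate block, 0 where summits had to lie within 200 bp of each other, a rule that took C3ar1 region 3 out of the test, and 0 to 1 without any 1 library. The single higher call became 9 with median scaling, 0 with fold enrichment and 0 with the replicate block, 0 to 2 without any 1 library, and 5 to 9 with median scaling and 1 library left out, a setting chosen after seeing the data. Over all 58550 shared regions, 3994 lower calls became 7298 with median scaling, 2092 with fold enrichment and 872 with the replicate block, and ranged from 134 to 12406 without any 1 library. The 1643 higher calls became 7816 with median scaling and 330 with the replicate block, ranged from 96 to 3726 without any 1 library, and were 5690, 5976, 4837 and 5356 with median scaling without WT replicates 1 and 2 and IRF8KO replicates 1 and 2. The labels do not say whether replicate numbers pair the samples. The correlation of replicate 1 minus replicate 2 between the genotypes was 0.00438 across regions. This measure cannot show a shift common to a whole library, so it does not decide the question. With the block the limma adjusted p was 0.361 at C3ar1 region 5 and 0.592 at C3ar1 region 3.

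The 3 WT-specific regions became 1 at −log10 q of 5 and 0 at a fold enrichment of 5, and 3 to 5 without any 1 library. The single IRF8KO-specific region became 0 at −log10 q of 5, 3 when all deposited peaks counted, 0 at a fold enrichment of 5, 0 with flanks of 5 kb and 2 with flanks of 20 kb, and 1 to 4 without any 1 library. The strict-peak difference of −1 became 4 when all deposited peaks counted and 1.5 at −log10 q of 5, and ran from −3 to 1 without any 1 library. Signs turned at C1q region 4 (0.080 with median scaling without IRF8KO replicate 2), C1q region 5 (0.082 with fold enrichment), C1q region 11 (0.076 with median scaling, 0.075 with fold enrichment, −0.49 to 0.029 without any 1 library, and 0.17 and 0.30 with median scaling without WT replicate 1 and IRF8KO replicate 2), C3ar1 region 4 (0.18 with median scaling, 0.15 with fold enrichment, −0.40 to 0.16 without any 1 library, and 0.085, 0.28, 0.14 and 0.22 with median scaling and 1 library left out), C5ar1 region 4 (−0.010 with fold enrichment) and Cfp region 7 (−0.26 to 0.56 without any 1 library). The causes were not tested. With 1 library left in a genotype, it is assumed to vary like the others. A region without a deposited peak can still hold cut sites under the calling threshold, whose number is not known from these lists.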
